A study of Mus musculus with 6 samples.

Results

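Gap junctions are channels that join the cytoplasm of neighbouring cells. Each connexin gene encodes a subunit of these channels, and pannexins are related in topology but form channels in the membrane of a single cell that release ATP. The genes described are 6 connexins (Gja1, Gja3, Gja4, Gjb2, Gjb5 and Gjc1) and the pannexin Panx1. They are the rows with these names in the authors' deposited table of control siRNA against Npm1 siRNA, 7 genes of 52535 rows. The set was chosen by the fold change of Gja1 and its error, which made that gene one of the most precisely measured rises of this same comparison. All differences of the 7 genes are therefore a description and carry no test of their own.

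Connexin subunits pass through the endoplasmic reticulum and Golgi, assemble as hexamers, and dock with hexamers of the next cell to form plaques. Plaques are tied to the scaffold protein ZO-1 and usually lie beside adherens junctions, and connexins turn over rapidly. Connexin43, the product of Gja1, is the connexin best known in mouse embryonic stem cells, where it takes part in coupling of cells within a colony.

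The cells were E14, an established line of mouse embryonic stem cells, grown in N2B27 medium with LIF and 2i, which hold them in naive pluripotency. Both groups came from the same parental line and were transfected in the same way. One group of 3 samples received control siRNA and is labelled WT, and the other group of 3 received siRNA targeting NPM1 and is labelled NPM1 knockdown. All were collected 3 days after transfection. Npm1 encodes nucleophosmin of the nucleolar granular component, and its transcript was at 45.3% of the control level per the authors' deposited table, so the knockdown group is a partial loss. The table pools all 6 libraries and its header does not state the direction of its ratios. Directions were read from the negative Npm1 value, as Npm1 siRNA over control siRNA. Whether the samples of a group were separate cultures is not in the labels. The p-values thus reflect the spread between the samples at hand, which may be technical.

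The mean normalized count is the read count of a gene divided by a scaling factor per library and averaged over the 6 libraries by the authors. The total depth of each library is unknown, but the scaling factors lay between 0.923 and 1.06 relative to each other, as read from genes seen by a single read. Markers of pluripotent stem cells fitted the label. All 8 were tested, none passed the threshold, and their log2 fold changes ran from -0.03 to 0.10 per the authors' deposited table. Fibroblast markers summed to a mean of 46.0 against 88932 for the pluripotency markers, with Dcn and Postn at 0. Of 10 trophoblast markers 6 were tested and none passed, with a median log2 fold change of 0.24 and a summed mean of 806. Eomes and Tfap2a had most of these reads, with means of 325 and 268 per the authors' deposited table, while Hand1 and Tpbpa were at 0. Tfap2a had a log2 fold change of 0.49 and an unadjusted p of 0.00598 per the authors' deposited table, with an adjusted p of 0.0946. Of the 6 tested trophoblast markers, 4 had positive and 2 had negative log2 fold changes. The negative ones were Krt7 at -0.76 and Krt18 at -0.41 per the authors' deposited table. Of 8 primitive endoderm markers 5 were tested and none passed, with a median log2 fold change of -0.32 and a summed mean of 5578, of which the laminin gene Lama1 held 5452 per the authors' deposited table. Gata4 and Dab2 had means of 34.4 and 34.2, and Gata6 and Sox17 of 1.81 and 1.28, per the authors' deposited table. The part of such cells in the results was not tested.

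Upstream sequences are shown for 3 connexins because they stand for the 3 situations found among the members. Gja1 rose after Npm1 siRNA, Gjb5 was well expressed with an estimate near 0, and Gjb2 was almost without reads. Each line gives the 250 bases before the RefSeq gene start in GRCm38.p6, read 5′ to 3′ on the gene's strand, with motif matches in capitals. The windows are chr10:56377050-56377299 on the plus strand for Gja1, chr4:127358165-127358414 on the minus strand for Gjb5, and chr14:57104703-57104952 on the minus strand for Gjb2. GENCODE, used for all other coordinates, places the start of Gja1 slightly further downstream.
Gja1: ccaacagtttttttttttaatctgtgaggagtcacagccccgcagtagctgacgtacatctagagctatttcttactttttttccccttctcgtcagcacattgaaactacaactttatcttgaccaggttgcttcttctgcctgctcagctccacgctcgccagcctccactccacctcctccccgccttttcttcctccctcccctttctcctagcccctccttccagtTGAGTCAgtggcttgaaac
Gjb5: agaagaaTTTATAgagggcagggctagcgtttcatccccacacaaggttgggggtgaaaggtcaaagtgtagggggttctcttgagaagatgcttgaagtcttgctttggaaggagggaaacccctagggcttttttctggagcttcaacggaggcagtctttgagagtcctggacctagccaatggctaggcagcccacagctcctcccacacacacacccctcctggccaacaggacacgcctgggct
Gjb2: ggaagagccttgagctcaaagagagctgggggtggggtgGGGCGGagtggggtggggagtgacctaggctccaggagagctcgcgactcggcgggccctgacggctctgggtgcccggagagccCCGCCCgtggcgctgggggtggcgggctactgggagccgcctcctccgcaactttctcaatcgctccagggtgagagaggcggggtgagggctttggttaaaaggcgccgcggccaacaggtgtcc

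Motifs of 4 kinds were searched on both strands. The AP-1 motif was spelled TGACTCA, and the Gja1 window held 1 match on its other strand, from 19 to 13 bases before the start. For a TATA box the letters TATAAA were used, for a GC box the letters GGGCGG, and for a T-box half-site the letters GGTGTGA, and none of these was in the Gja1 window. The motifs do not overlap in the windows shown. AP-1 matches were in 4.46% of 32851 promoter windows of the same length. No other connexin or pannexin window in the table held AP-1, which says only that these letters are not there. The Gjb5 window held a TATA box match on its other strand, but at 243 to 238 bases before the start, and TATA matches were in 12.4% of windows. The Gjb2 window held the GC box in both orientations, from 211 to 206 and from 126 to 121 bases before the start, a motif present in 32.7% of windows. CpG dinucleotides numbered 6 in the Gja1 window, equal to the median of 6 over all windows, 3 in Gjb5, 9 in Gja4, 17 in Panx1 and 18 in Gjb2. The 2 windows of Gja3, a gene almost without reads, held 26 and 29 CpGs. The table held windows of 6 of the 7 members, with none for Gjc1.

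Transcript levels were set side by side as mean normalized count per kb of the longest annotated transcript, since a longer transcript gives more reads. Of the 7 members, 5 reached a mean normalized count of 10 and were tested, and Gjb2 and Gja3 did not reach it. Gjc1, which encodes connexin45, stood highest among the members at 959 per kb. Gjb5, a beta connexin known from skin and placenta, followed at 329 per kb, and Gja1 at 210 per kb. Gja4, the connexin of arterial endothelium and oocytes, was at 35.6 per kb and Panx1 at 25.05 per kb. These values are averages over both groups without a spread between samples, so the order of close neighbours such as Gja4 and Panx1 was not tested. With the length of the longest protein-coding transcript, an alternative chosen after seeing the data, Gjc1 was at 1415 and Gja1 at 257 per kb, and the order was kept. With the union of all exons Gja1 was at 79.8 per kb, still between Gjb5 and Gja4.

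Some of the members lie near each other in the genome. Gja4 and Gjb5 lie 40.8 kb apart on chromosome 4 (GRCm38) and both had reads enough to be tested. Gja3 and Gjb2 lie together on chromosome 14 and had hardly any reads, and Gjb6, their neighbour, was at 0. Of the 23 connexin and pannexin genes of the mouse, 17 had at least 1 read and 6 were at 0, among them Gja5.

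**Figure D1:**
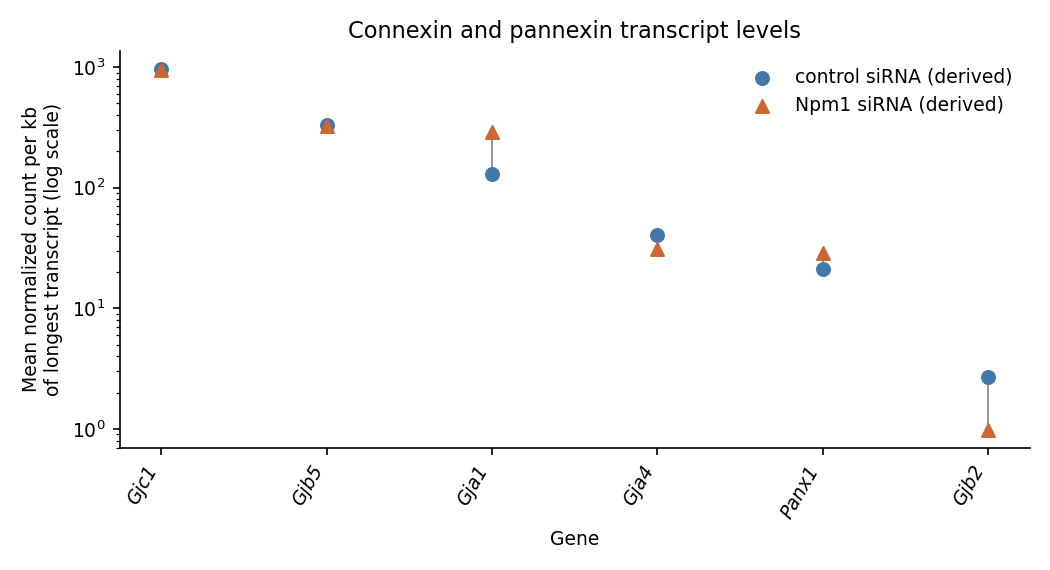
Level of the 6 members whose mean normalized count reached 1, as mean normalized count per kb of the longest transcript on a log axis, with circles for control siRNA and triangles for Npm1 siRNA, both derived from the pooled mean and the fold change without error bars. Gjc1 is highest, and Gja1 moves from 131 per kb in control to 290 per kb after Npm1 siRNA while the points of Gjc1 and of Gjb5 overlap.

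Gja1, the alpha connexin of stem cells, heart and astrocytes, lies on chromosome 10 from 56377330 to 56402513 (GRCm38, ENSMUSG00000050953.10). Its mean normalized count was 818 per the authors' deposited table. The fold change divides this into about 509 in control and 1128 after Npm1 siRNA. Gja1 therefore rose 2.22-fold. The authors' deposited table gives a log2 fold change of 1.15, with an implied standard error of 0.13 and a 95% interval from 0.89 to 1.41. The Benjamini-Hochberg adjusted p, 1.04e-14 from the authors' deposited p, is among the values that chose the gene.

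The rise of Gja1 was large for its abundance, which is again a description. Of 3898 tested genes with a mean within 2-fold of its own, 95% had log2 fold changes between -0.37 and 0.37, and 5.39% were called. By size, Gja1 was the gene of rank 105 among all tested genes, and 103 of the 104 genes above it had means under 100. By p it was of rank 2 among the genes with a positive fold change. Its standard error of 0.13 was close to the median of 0.12 for genes of like abundance, so what set its p apart was the size of the change rather than an unusually small error. At 290 per kb after Npm1 siRNA it was just below Gjb5 at 326 per kb, whereas in control it was at 131 against 331 per kb. The order of the 2 genes after Npm1 siRNA depends on the length used. The longest Gja1 transcript, of 3.889 kb, is not a coding one. With the longest protein-coding transcript, of 3.182 kb, Gja1 would stand above Gjb5, and with the union of exons well below it.

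**Figure D2:**
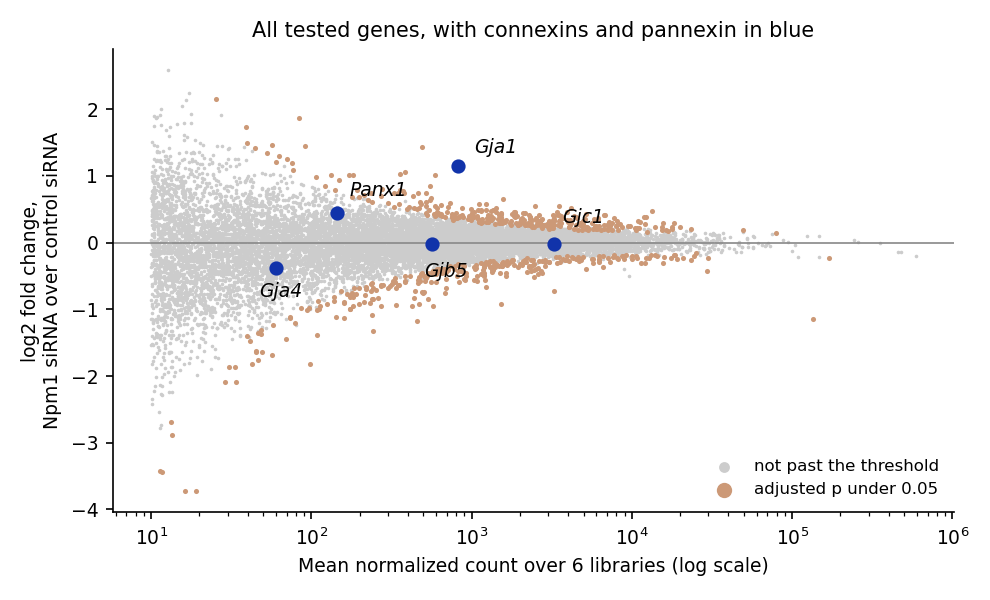
Log2 fold change of Npm1 siRNA over control siRNA against mean normalized count on a log axis for all 14284 tested genes, with called genes in brown and the 5 tested members as blue points. Gja1 stands above the cloud at a log2 fold change of 1.15, and Gjc1 and Gjb5 lie near 0.

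Gja4, the other alpha connexin above the minimum, lies on chromosome 4 from 127311421 to 127314039 (GRCm38). Its mean was 59.96 and its log2 fold change -0.38 per the authors' deposited table, with a 95% interval from -1.18 to 0.41 and an adjusted p of 0.730. Its standard error of 0.41 was about that of genes of like abundance, with a median of 0.39, and at this depth changes as large as that of Gja1 in the downward direction lie within its interval. Gja3, the alpha connexin of lens fibre cells (chromosome 14, 57034460 to 57058100), had a mean of 0.318 per the authors' deposited table. That value equals 2 reads in a single library within a tolerance of 1e-08, the only combination of whole reads that gives it. Its log2 fold change of 1.78 per the authors' deposited table, with an interval from -6.14 to 9.70, rests on those 2 reads, and no difference was detectable at this depth.

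Among the beta connexins, Gjb5 (chromosome 4, 127354809 to 127358181) had a mean of 566 per the authors' deposited table. Its log2 fold change was -0.02 per the authors' deposited table, with a 95% interval from -0.26 to 0.22 and an adjusted p of 0.967. Changes of more than about 0.26 in either direction were therefore outside its interval. Gjb2, the beta connexin of cochlea and liver (chromosome 14, 57098600 to 57104702), had a mean of 4.41 per the authors' deposited table. This corresponds to 26 reads in all, spread over 5 of 6 libraries, with 12 of them in 1 library. Its log2 fold change of -1.45 per the authors' deposited table had an interval from -4.35 to 1.46, so a single library carried nearly as many reads as the rest together and no difference was detectable.

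Gjc1, the gamma connexin needed for the early heart, lies on chromosome 11 from 102799579 to 102819700 (GRCm38). Its mean was 3275 per the authors' deposited table, the highest of the members. Its log2 fold change was -0.02 per the authors' deposited table, with a 95% interval from -0.16 to 0.12 and an adjusted p of 0.926. This was the narrowest interval among the members, and it leaves out changes larger than 0.16 on the log2 scale.

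Panx1, the widely expressed pannexin, lies on chromosome 9 from 15002128 to 15045478 (GRCm38). Its mean was 144 and its log2 fold change 0.45 per the authors' deposited table, with a 95% interval from 0.00496 to 0.897. The unadjusted p per the authors' deposited table was 0.0475, and the Benjamini-Hochberg adjusted p over all tested genes was 0.29998. Panx1 did not pass, and 16.3% of all tested genes had an unadjusted p under 0.05. The other pannexins had few or no reads, with 8 reads in all for Panx2 and a mean of 0 for Panx3.

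In all, 1 of the 5 tested members was called, Gja1, in the upward direction. Over all 14284 tested genes, 4.30% were called, 2.23% as higher and 2.07% as lower. Since the comparison also chose the members, nothing is read from that count. The median log2 fold change of the 5 members was -0.02, beside 0.00192 over all tested genes.

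Of the other 16 connexin and pannexin genes, 3 were tested and none passed. Gjb1, the connexin of liver and Schwann cells, had a mean of 13.1 and a log2 fold change of 0.06 per the authors' deposited table, with an interval from -1.44 to 1.55. The remaining 13 had means under 10. Gje1 and Gja10 had 5 and 3 reads, in each case all in a single library.

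**Figure D3:**
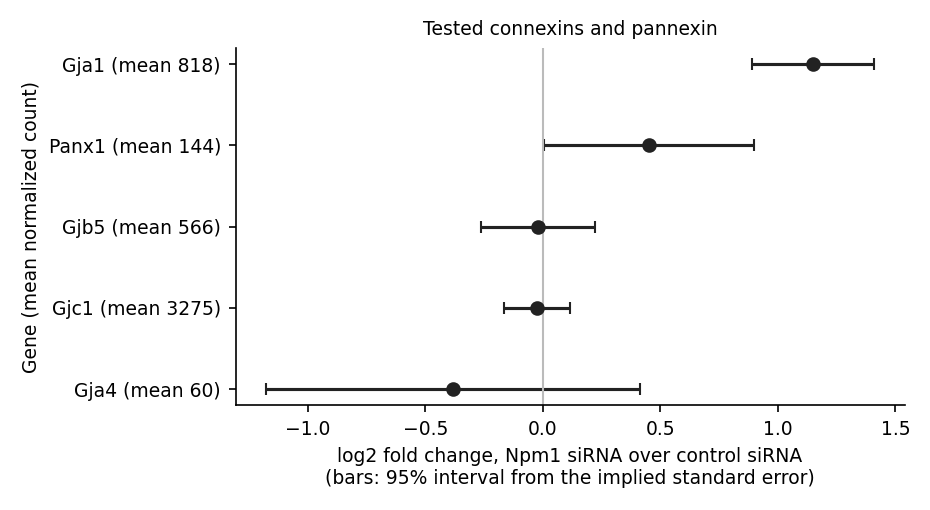
Log2 fold change of Npm1 siRNA over control siRNA for the 5 tested members, with bars for the 95% interval from the implied standard error. The interval of Gja1 runs from 0.89 to 1.41 and lies above those of Gjc1, Gjb5 and Gja4.

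Genes whose products work with connexins were followed in 5 lists made by function. Of 102 genes, 83 were tested, 3 rose and none fell, which is 3 of 83 beside 2.23% of all tested genes called higher. Counts by unadjusted p under 0.05 are also given for each list, and 16.3% of all tested genes were under that value. Among plaque partners and genes of trafficking and turnover, 1 of 17 tested rose and none fell, with a median log2 fold change of 0.04. It was Dctn1, a dynactin subunit of microtubule transport (log2 0.24 per the authors' deposited table, adjusted p = 0.0336). Dctn1 lost its call with no filter on low means (adjusted p = 0.0589) and once the length and GC trend was subtracted (adjusted p = 0.444). By unadjusted p, 6 of the 17 were under 0.05, Dctn1 among them. The others were Hgs, Kif5b, Ubqln4 and Cltc (log2 0.28, 0.16, 0.16 and 0.15) and Dbn1 (-0.90), per the authors' deposited table. The scaffold gene Tjp1, which encodes ZO-1, was at log2 0.01 per the authors' deposited table, and Nedd4, a ubiquitin ligase that acts on connexin43, at -0.08.

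None of 16 tested kinases, phosphatases and 14-3-3 genes that act on connexin43 passed, beside 1 with an unadjusted p under 0.05, Mapk3 (log2 -0.22 per the authors' deposited table). The most abundant of them, Ppp2ca, a phosphatase subunit, was at log2 -0.04 per the authors' deposited table. The list median was 0.01.

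Of 21 adherens and tight junction genes, 1 rose and none fell, with a median of -0.00616. It was Jup, which encodes plakoglobin, a catenin of adherens junctions and desmosomes. Jup had a mean of 6785 and a log2 fold change of 0.41 per the authors' deposited table, with a 95% interval from 0.26 to 0.56 and an adjusted p of 1.20e-05. Its relative Ctnnb1 had a log2 fold change of -0.02 and the cadherin Cdh1 0.03 per the authors' deposited table, and neither passed. By unadjusted p, 4 of the 21 were under 0.05, Jup among them. The others were Epcam (log2 0.29), Cdh2 (-0.71) and Afdn (-0.18), per the authors' deposited table.

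Of 15 tested genes of ATP release and purinergic signalling, in which Panx1 acts, 1 rose and none fell, with a median of 0.00205. It was Nt5e, the surface enzyme that turns AMP into adenosine, with a mean of 56.6 and a log2 ratio of 1.47 per the authors' deposited table (95% interval 0.62 to 2.32, adjusted p = 0.0227). The ATP receptor genes P2rx4 and P2rx7, the latter often named as a partner of pannexin channels, had log2 fold changes of 0.12 and -0.02 per the authors' deposited table. Neither passed. By unadjusted p, 2 of the 15 were under 0.05, Nt5e and Slc17a9 (log2 0.23 per the authors' deposited table).

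Of 14 tested transcription factors described at the Gja1 promoter none passed, beside 1 with an unadjusted p under 0.05, Tbx18 (log2 0.75 per the authors' deposited table, adjusted p = 0.205). Their median log2 fold change was 0.08. The AP-1 genes Jun, Junb and Jund had log2 fold changes of 0.18, 0.03 and 0.03 per the authors' deposited table, at means of 130, 133 and 142, and Fos, Fosb, Fosl1 and Fosl2 had means between 10.1 and 18.9. Sp1, a GC box factor and the most abundant of the list at a mean of 8222, had 0.06, and the repressor Tbx3 0.10, per the authors' deposited table. Transcript levels of these factors thus gave no call beside the rise of Gja1.

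**Figure D4:**
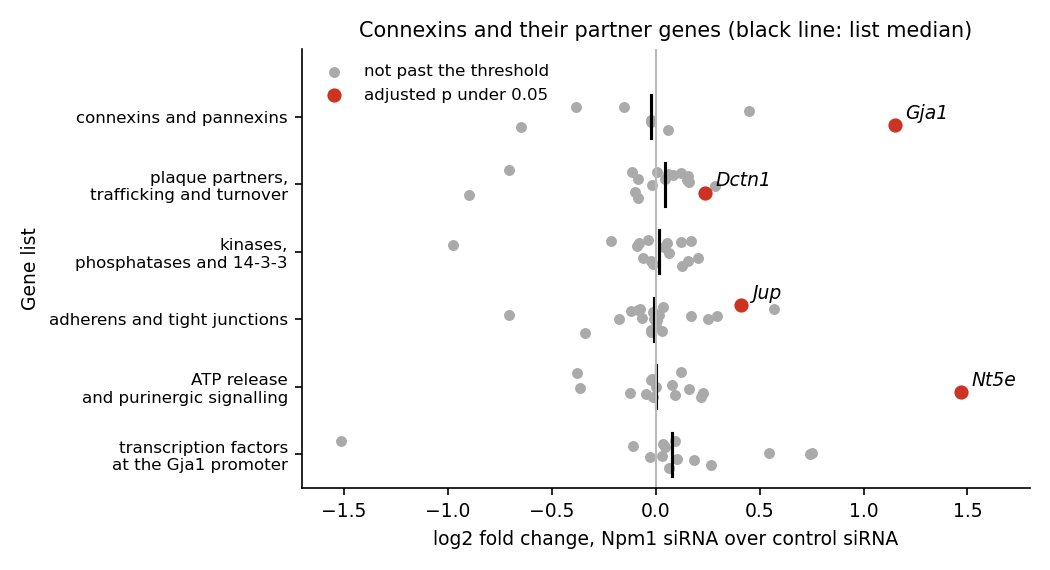
Log2 fold change of Npm1 siRNA over control siRNA for every tested gene of the connexin family and of the 5 partner lists, 1 point per gene with vertical jitter for legibility, red where the adjusted p was under 0.05 and a black line at each list's median. The medians lie between -0.02 and 0.08, and the red points are Gja1, Dctn1, Jup and Nt5e.

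The series concerns chromatin at the nucleolus, so the genes around the members on the chromosome were examined within 500 kb. Gja1 lies in a sparsely populated stretch. Only 4 other annotated genes of the table lie within that distance, 2 of them tested, and none on the side of higher coordinates was tested. These were Tbc1d32, a cilium gene 149 kb away on the side of lower coordinates, and Msl3l2, 260 kb away on the same side. Their log2 fold changes were -0.38 and -0.10 per the authors' deposited table, with adjusted p-values of 0.429 and 0.971. Both estimates were opposite in sign to that of Gja1 and neither passed.

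Around Gja3 and Gjb2 none of 12 tested neighbours passed, with log2 fold changes from -0.33 to 0.27. The nearest were Zmym2, a zinc finger gene (log2 0.12 per the authors' deposited table), and Cryl1 (-0.23). Zmym2, at a mean of 2727, lies 71.8 kb from Gja3 and 136 kb from Gjb2. Cryl1, at a mean of 36.1, lies 170 kb from Gjb2 on the other side, both means per the authors' deposited table. The genes found between Zmym2 and Cryl1 other than both connexins were at 0, Gjb6 among them. Around Gja4 and Gjb5 none of 13 passed, and no tested gene lay beyond Gjb5 on the side of higher coordinates. Around Gjc1, 1 of 24 rose and 1 fell. These were Grn, the secreted growth factor progranulin 363 kb away, and Meioc, a meiotic regulator 117 kb away. Their log2 fold changes were 0.19 and -0.53 per the authors' deposited table, with adjusted p-values of 0.0338 and 0.0159. The nearest tested genes, Adam11 and the splicing factor Eftud2, had -0.60 and -0.05 per the authors' deposited table and did not pass. Around Panx1, 1 of 10 rose, Taf1d, a factor of RNA polymerase I 261 kb away (log2 0.22 per the authors' deposited table, adjusted p = 0.0374). The nearest, Mre11a and Vstm5, had 0.00126 and 0.17 per the authors' deposited table and did not pass. Together 2 of 61 neighbours rose and 1 fell, beside 2.23% and 2.07% over all tested genes, and neither rise was called after recentring on the median fold change.

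**Figure D5:**
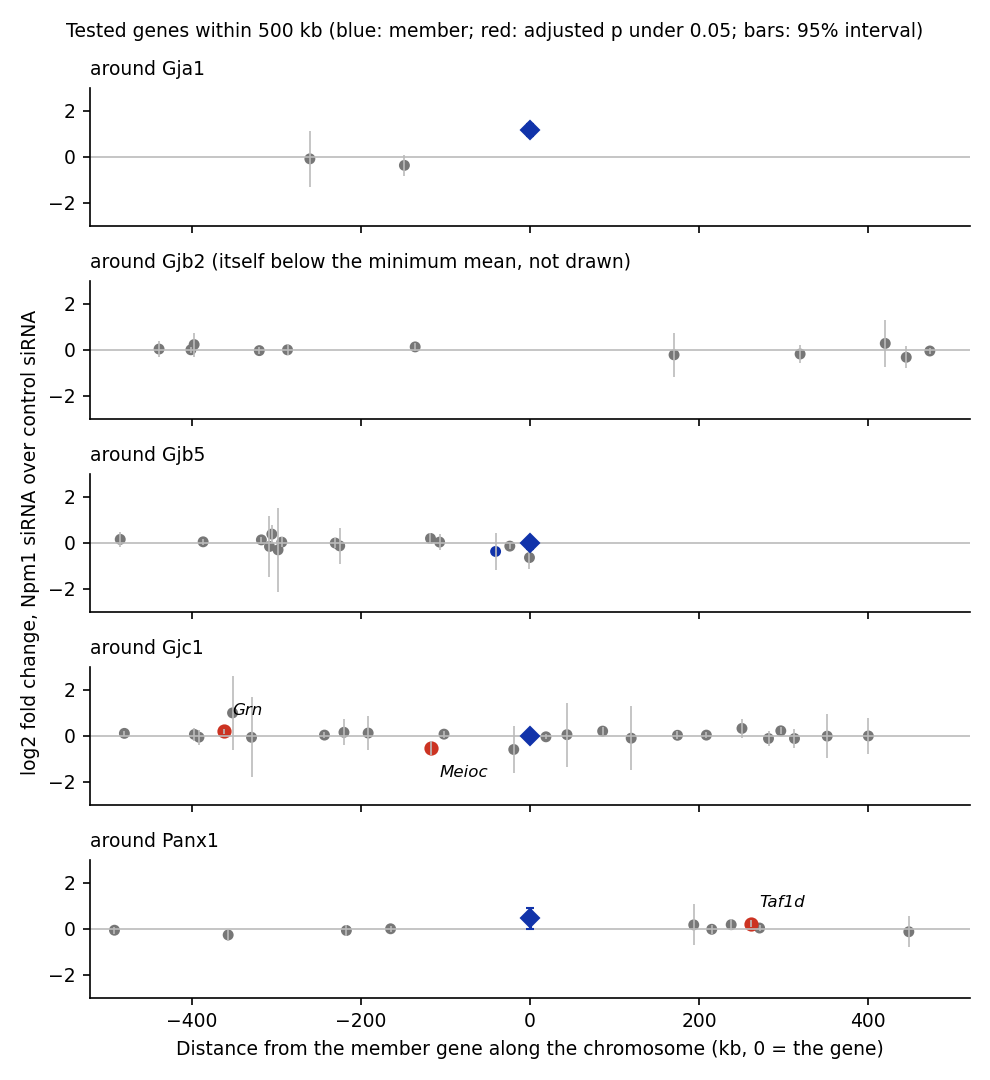
Log2 fold change of tested genes within 500 kb of Gja1, Gjb2, Gjb5, Gjc1 and Panx1 against distance from that gene in kb, with bars for the 95% interval (drawn within the axis limits), members in blue and called neighbours in red. Gja1 has 2 tested neighbours, both with negative estimates, and the called genes are Grn and Meioc around Gjc1 and Taf1d near Panx1.

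With only 1 comparison and no values per library, likeness to Gja1 could be measured only by level and fold change. Of 209 other called genes with a mean within 2-fold of Gja1, 105 rose, and 1 of them, Islr2, had a larger rise than Gja1. Among the 5 nearest in log2 fold change were Islr2, a membrane protein of neurons, at 1.44, Nefl, the light neurofilament, at 0.85, the phosphatase Ptpn14 at 0.74 and the integrin subunit Itgb5 at 0.74, all per the authors' deposited table.

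In bulk RNA, more cells that express Gja1 and more Gja1 RNA per cell cannot be told apart. Of the neural progenitor markers, 2 of 7 were tested and 1, Sox1, rose (log2 1.26 per the authors' deposited table, adjusted p = 0.0159). Nes was at 0.01 per the authors' deposited table and Fabp7 and Hes5 were at 0. Pax6, Zic1 and Pax3 had means under 10 and log2 fold changes of -0.82, -0.99 and -0.43 per the authors' deposited table. The summed derived level of that list was 941 in control and 994 after Npm1 siRNA. Nes held 880 and 883 of these, and Sox1 went from 41.8 to 100. The part of such cells in the rise of Gja1 was not tested.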

How the data were processed

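Polyadenylated RNA of E14 cells was sequenced from a single end in stranded libraries, per the labels' protocols. The submitters' processing notes name FastQC, Trimmomatic 0.36, STAR and DESeq2 and the build GRCm38 (mm10). The read counter, strand use and annotation were not given in the sources used here. The deposited table lists genes without any value for a single library. Per the file headers (DESeq2's names), the mean is a signal value, read counts divided by a scaling factor by the authors and averaged. The log2 fold change and the unadjusted p-value are the authors' deposited values. The file is a table of their own comparison, so the count model planned for values per library could not be fitted, and no SD or n per value is given.

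Benjamini-Hochberg adjustment of the authors' p-values covered 14284 genes whose mean reached 10, and genes under 0.05 were called. The implied standard error is the size of the log2 fold change over the normal quantile that its two-sided p gives (exact if the p is from a Wald test), and intervals use the normal distribution. Group levels were computed from each pooled mean and ratio with equal group sizes. Coordinates, lengths and GC content came from GENCODE M21, with a unique symbol match for 97.4% of tested genes. Whole reads behind means under 5 were sought as combinations of the 6 single-read steps. Calculations used Python 3.11.15, scipy 1.17.1 and patsy. They were tested on fold changes simulated with normal errors and not on simulated counts. That run checks the arithmetic only and cannot tell whether the implied standard errors hold for these data.

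Named genes were the members, every tested family gene, called partners (or the 2 most abundant), called and nearest neighbours, and the 5 called genes most like Gja1. Other family and partner genes were named for their role or unadjusted p after their values were seen. Predicted genes were not named, and some genes that the rule would name are not reported here. The members and lists were chosen with earlier results of these data known. Alternatives were other filters, recentring, a length and GC trend, Benjamini-Yekutieli adjustment, a test against a fold of 1.2 and other gene lengths.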

Additional observations from a re-analysis of the deposited data

How the results depend on the processing

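Gja1 was called higher and no other member was called under all 6 alternatives that change the test, and the fold change of Gja1 kept its sign. These alternatives rework the same deposited fold changes and p-values that chose Gja1. Its call under them is therefore a description and no separate support. The estimates of Gjb5 and Gjc1 changed sign once the length and GC trend was subtracted, to 0.00107 and 0.00434, both close to 0 before and after. With Benjamini-Yekutieli adjustment 121 genes rose and 109 fell, with 1 partner gene higher and 0 neighbours in either direction. Against a fold of 1.2, 6 genes rose and 11 fell, with 0 partner genes higher and 0 neighbours in either direction. The count of neighbours called higher was 0 with no filter, after recentring and with the length and GC trend, and with that trend 2 neighbours were lower, Meioc among them. Jup was the partner gene that passed under Benjamini-Yekutieli adjustment, where Nt5e and Dctn1 did not. Why these calls moved was not examined and the cause was not tested.

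With the union of exons as length, levels per kb were 79.8 for Gja1, 655 for Gjc1, 23.8 for Panx1 and 0.107 for Gja3. With the longest protein-coding transcript, chosen after seeing the data, they were 257 for Gja1 and 1415 for Gjc1. No paired analysis was possible because the table has no values per library, and for the same reason leaving out replicates and other scalings of counts were not run. Depth limits Gja4, Gjb2 and Gja3 in particular.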
